A study of Homo sapiens with 10 samples.

Results

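The interferon regulatory factor (IRF) family was followed in RNA-Seq libraries of MV4-11, an established acute myeloid leukemia (AML) cell line that carries a FLT3-ITD mutation. The set held the 8 genes IRF1, IRF2, IRF3, IRF4, IRF5, IRF7, IRF8 and IRF9, picked by symbol from the 19590 genes of the normalized count table. All 8 reached the mean of 10 normalized counts that was required for testing, as did 13110 genes in all. The control group was MV4-11 infected with the control vector (4 libraries), and the other group was MV4-11 in which IRF8 had been targeted with lentiviral CRISPR/Cas9 (4 libraries, here called IRF8 knockout). The knockout cells were clones grown by limiting dilution, of which clones 1 and 2 were made with the first gRNA and clone 3 with the second. No cloning of the control cells is described, so loss of IRF8 and clonal origin cannot be told apart in any difference below. The sources used here do not say which clone gave which library, nor whether the 4 control libraries came from separate infections, so p-values measure the spread between these libraries, which may be technical.

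IRF proteins bind GAAA-containing elements in DNA through a conserved tryptophan-rich domain at their amino terminus. IRF3, IRF5 and IRF7 sit in the cytoplasm until a pattern recognition receptor is triggered, and then switch on interferon and cytokine genes. IRF9 joins STAT2 to help carry the type I interferon signal to the nucleus, while IRF1 activates and IRF2 mostly dampens genes with the same element. IRF8 and the closely related IRF4 bind DNA weakly on their own and act with the ETS factors PU.1 (SPI1) or SPIB, or with AP-1 factors of the BATF type. IRF8 is best known for driving progenitor cells towards monocytes and dendritic cells.

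The promoter windows of the family were searched for the elements through which IRF and STAT proteins are known to act. RefSeq windows (GRCh38.p14) were matched for 5 of the 8 genes, with 9 windows in all, since IRF5 has 4 and IRF8 has 2. The letters searched in the 250 bases before each start, on both strands, were GAAA, any 2 bases and GAAA again (the core of the interferon-stimulated response element), GGAA, any 2 bases and GAAA (a composite ETS-IRF element) and TTCNNNGAA (the gamma-interferon activation site, GAS). Of all 35116 promoter windows, 3.02% held the first, 2.41% the second and 6.57% the third, and a window may hold more than 1 of them. In the family, 3 windows held a match. They are printed 5′ to 3′ along the gene with the match in capitals, as the only ones of the 9 windows with a match. Whether a match goes with a change of the gene was not tested.
IRF5, chr7:128940420-128940669, plus strand: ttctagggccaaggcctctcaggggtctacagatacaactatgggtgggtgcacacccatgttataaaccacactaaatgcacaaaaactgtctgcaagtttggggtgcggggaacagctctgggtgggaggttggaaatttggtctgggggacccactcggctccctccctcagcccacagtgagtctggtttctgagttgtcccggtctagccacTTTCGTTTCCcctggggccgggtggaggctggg
IRF1, chr5:132490774-132491023, minus strand: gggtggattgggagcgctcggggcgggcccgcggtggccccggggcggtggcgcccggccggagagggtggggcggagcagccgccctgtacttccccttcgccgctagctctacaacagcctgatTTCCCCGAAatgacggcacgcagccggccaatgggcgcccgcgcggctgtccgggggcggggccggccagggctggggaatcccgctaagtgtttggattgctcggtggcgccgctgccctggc
IRF9, chr14:24161015-24161264, plus strand: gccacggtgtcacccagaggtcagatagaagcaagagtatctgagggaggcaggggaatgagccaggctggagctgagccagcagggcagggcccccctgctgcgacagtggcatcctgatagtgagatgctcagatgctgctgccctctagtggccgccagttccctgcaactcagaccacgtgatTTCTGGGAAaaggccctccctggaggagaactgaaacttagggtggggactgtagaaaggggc

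The capitals in the IRF5 window are the composite ETS-IRF letters on the opposite strand, 33 to 24 bases before the start. That window lies inside the RefSeq span of IRF5, 128937032 to 128950038, as do its other 3 windows, so this is a start within the gene. Those in the IRF1 and IRF9 windows are the GAS letters, 124 to 116 and 63 to 55 bases before the start. No match stood in the other 3 windows of IRF5, in the window of IRF4 or in the windows of IRF8, chr16:85902580-85902829 and chr16:85902765-85903014, which lie inside the gene's RefSeq span. The bases before the RefSeq spans of IRF5 and IRF8 were therefore not searched. IRF2, IRF3 and IRF7 had no window in the table. A match of letters is a description and not a binding site.

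Reads on genes ranged from 39560072 to 65519047 per library. Control replicates 1 and 3 stood apart from 2 and 4. In 81.2% of the tested genes, the values of control replicates 1 and 3 were both above or both below those of replicates 2 and 4, and the same held for 49.4% in the knockout libraries. The labels name no batch. All 8 markers of myeloid leukemia listed for the check (among them PTPRC, CD33, SPI1 and FLT3) averaged at least 100 normalized counts over the 8 libraries, although ITGAM averaged 79.6 in the control and 710 in the knockout libraries. The 4 T cell markers summed to between 2.41 and 8.63 in the control and between 10.8 and 27.1 in the knockout libraries, where CD2 reached 20.3 and CD247 10.5, while CD3D and CD3E had at most 0.956 in any library. KRT18, an epithelial keratin, fell from between 451 and 539 in the control to at most 9.5 in the knockout libraries, MPO averaged 767 in the control and 13378 in the knockout libraries, and LYZ ranged from 1734 to 14757 in the control and from 13767 to 248604 in the knockout libraries. The part of these differences in the results below was not tested.

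IRF8, IRF5 and IRF4 fell in the IRF8 knockout cells, and the other 5 members did not pass the test. The 3 calls were made at a Benjamini-Hochberg adjusted p below 0.05 in limma on log2(normalized count + 1), a scale that understates changes of low genes. They make up 37.5% of the members, against 18.2% of all tested genes called in either direction and 9.56% called lower. IRF8 is the gene that was targeted, and it is counted in this share and in the figures for the members that follow. These figures therefore do not describe the family apart from its target. No member was called higher in this fit, against 8.65% of all tested genes, also not at an unadjusted p below 0.05 or with edgeR or DESeq2. The median log2 fold change of the 8 members was -0.64, beside 0.00 over all tested genes. The 3 called members were also those whose 4 control and 4 knockout values did not overlap, which held for 25.3% of all tested genes, 13.0% with the knockout lower and 12.3% with it higher. The same 3 passed the thresholds of the study (a 2-fold difference or more at an unadjusted p below 0.01), as did 10.9% of all tested genes. The p was that of limma here and that of DESeq2 in the paper. Without control replicate 1 or without control replicate 3, IRF5 was the only member called.

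**Figure D1:**
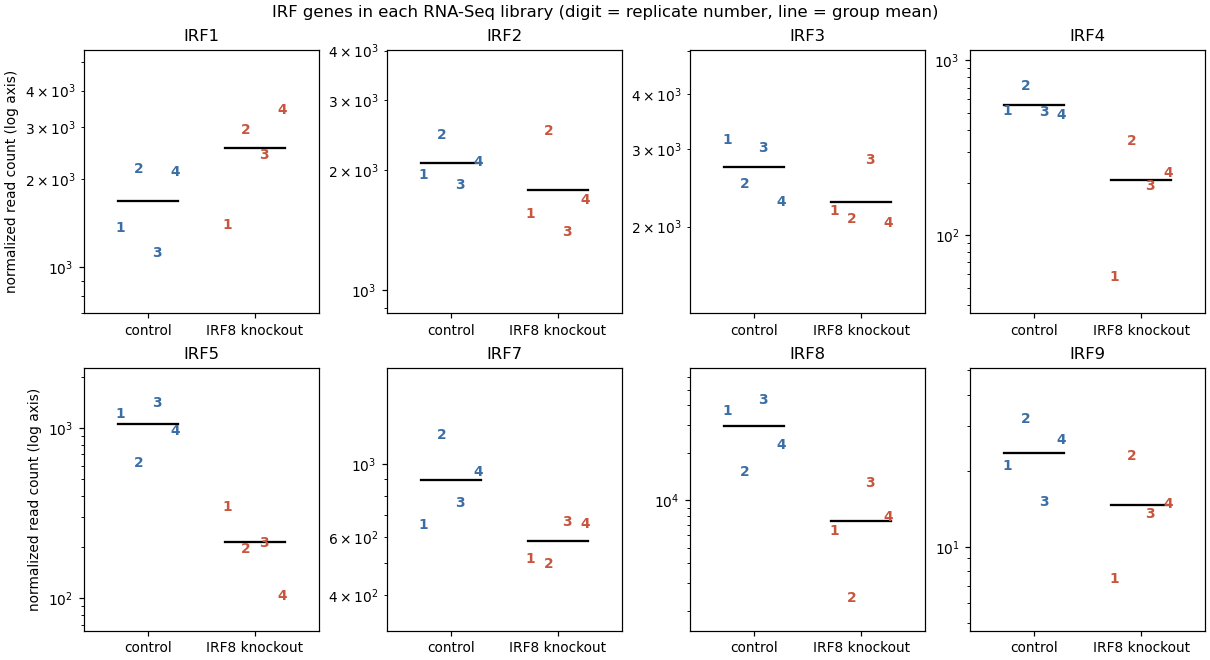
Normalized read counts (log axis, a separate scale for each gene) of the 8 IRF genes in the 4 control (blue) and 4 IRF8 knockout (red) libraries, with digits for the replicate number and a line for the group mean. The groups are apart for IRF4, IRF5 and IRF8 and overlap for the other 5 genes.

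IRF8 (chromosome 16, 85899162 to 85922609 in GRCh38.p14) is the targeted gene. It had 36891, 15192, 43016 and 22535 normalized counts in control replicates 1 to 4, and 6377, 2401, 12903 and 7820 in knockout replicates 1 to 4. Every knockout library therefore held IRF8 mRNA, with the lowest value in replicate 2 and the highest in replicate 3, and the total per gene cannot show whether the reading frame was broken. The paper reports that its knockout clones were genotyped by sequencing and lacked IRF8 protein on Western blots. In these bulk libraries, fewer cells with the mRNA and less mRNA per cell cannot be told apart. On the log2 scale the difference was -2.11 ± 0.51 (SE), with an adjusted p of 0.022 in limma, and within the same-numbered pairs it ranged from -2.66 to -1.53. The sources do not say what a shared number marks, so these are pairs by label only, here and below. The call was lost without control replicate 1, control replicate 3 or knockout replicate 1, with limma adjusted p-values of up to 0.059, while the fold change stayed between -2.46 and -1.65. By reads per gene, not corrected for transcript length, IRF8 ranked 162, 534, 117 and 312 among the 19590 genes in control replicates 1 to 4. In the knockout libraries its rank was 2005, 4826, 768 and 1490, so every knockout library placed it lower than every control library did.

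IRF4 (chromosome 6, 391752 to 411443) is the closest relative of IRF8 and is known from lymphoid cells and dendritic cells. Its normalized counts were 513, 719, 507 and 489 in the control and 57.5, 345, 192 and 228 in the knockout libraries. Control replicate 2 was high and knockout replicate 1 low for their groups, and the groups did not overlap. This was a log2 difference of -1.67 ± 0.49 (SE), for which limma gave an adjusted p of 0.045. This call sat close to the threshold. It was lost with edgeR on the recovered reads (adjusted p = 0.062) and when any library other than knockout replicate 1 or 2 was left out (limma adjusted p of up to 0.097). Without knockout replicate 1 the log2 fold change was -1.15 (limma adjusted p = 0.021), the smallest of the values with 1 library left out.

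IRF5 (chromosome 7, 128937032 to 128950038), which acts downstream of Toll-like receptors and MyD88 in inflammatory cytokine induction, had the largest fall by log2 difference. The limma 95% interval of -3.22 to -1.49 overlapped that of IRF8, -3.28 to -0.95. For IRF5, the control libraries had 1212, 619, 1411 and 963 normalized counts, and the knockout libraries 343, 195, 211 and 103. Even the highest knockout value, in replicate 1, was below the lowest control value, in replicate 2. Its log2 difference came to -2.36 ± 0.38 (SE, adjusted p = 0.0037 by limma), which leaves 20.3% of the control mean. It was the member whose call held with each library left out in turn (limma adjusted p from 0.0030 to 0.013) and with every other setting compared. In the exact permutation test, IRF4, IRF5 and IRF8 each had a two-sided p of 0.029, the smallest that 4 libraries against 4 can give.

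IRF7 (chromosome 11, 612555 to 615950) amplifies the type I interferon response and is itself induced by interferon. It had 653, 1226, 762 and 943 normalized counts in the control and 513, 498, 668 and 655 in the knockout libraries. Knockout replicates 3 and 4 lay just above control replicate 1, so the groups overlapped. The log2 difference was -0.59 ± 0.22 (SE) with an unadjusted limma p of 0.023, which did not pass after adjustment (limma adjusted p = 0.095). DESeq2 on the recovered reads called it (adjusted p = 0.040). The difference was -0.91 within replicates 2 and 4 and -0.27 within replicates 1 and 3, and the control libraries carried this gap, since the knockout means of the same replicates were 577 and 590.

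IRF3 (chromosome 19, 49659572 to 49665857), which TBK1 phosphorylates downstream of the sensors of viral nucleic acid, had 3144, 2494, 3021 and 2270 normalized counts in the control and 2164, 2079, 2826 and 2039 in the knockout libraries. Of the knockout libraries only replicate 3 reached into the control range. On the log2 scale the difference was -0.26 ± 0.16 (SE), with an adjusted p of 0.30 in limma. IRF3 overlaps BCL2L12 in RefSeq, so reads in the shared stretch may have been split or dropped in counting.

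IRF9 (chromosome 14, 24161265 to 24166565), the DNA-binding subunit of the interferon-activated ISGF3 complex, had few reads. It was counted with 26, 37, 14 and 28 reads in the control and 7, 24, 10 and 15 reads in the knockout libraries, or 20.9, 31.9, 15.0 and 26.4 against 7.46, 22.9, 13.5 and 14.8 normalized counts. The knockout libraries were lower in all 4 same-numbered pairs. At this depth the log2 fold change of -0.69 had a standard error of 0.40 (limma adjusted p = 0.28), and its 95% interval reached from -1.61 to 0.22.

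IRF1 (chromosome 5, 132481609 to 132490773), an activator that interferon gamma induces, was the only member with a positive difference. Its normalized counts were 1363, 2155, 1119 and 2119 in the control and 1391, 2943, 2420 and 3443 in the knockout libraries. Knockout replicates 2, 3 and 4 were above every control library and replicate 1 was inside their range. This was a log2 difference of 0.57 ± 0.32 (SE), for which limma gave an adjusted p of 0.26. With the replicate number as a block, limma gave an SE of 0.18 and an adjusted p of 0.048, just below the threshold. IRF1 was then called as well, where 28.7% of all tested genes were called. The same-numbered differences were 0.03, 0.45, 1.11 and 0.70 for replicates 1 to 4.

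IRF2 (chromosome 4, 184387729 to 184474550), which competes with IRF1 for its element, had 1944, 2457, 1834 and 2101 normalized counts in the control and 1555, 2510, 1402 and 1679 in the knockout libraries. Knockout replicate 2 was the highest of all 8 libraries and the other 3 the lowest. Its log2 difference came to -0.25 ± 0.19 (SE, adjusted p = 0.43 by limma). The ratio of IRF1 to IRF2 within a library was 0.701, 0.877, 0.610 and 1.01 in the control and 0.894, 1.17, 1.73 and 2.05 in the knockout libraries. Its mean was 0.799 ± 0.178 against 1.46 ± 0.523 (SD, n = 4 each), a difference that missed the threshold (exact two-sided permutation test, p = 0.057, and 0.17 after adjustment over the 3 ratios examined).

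**Figure D2:**
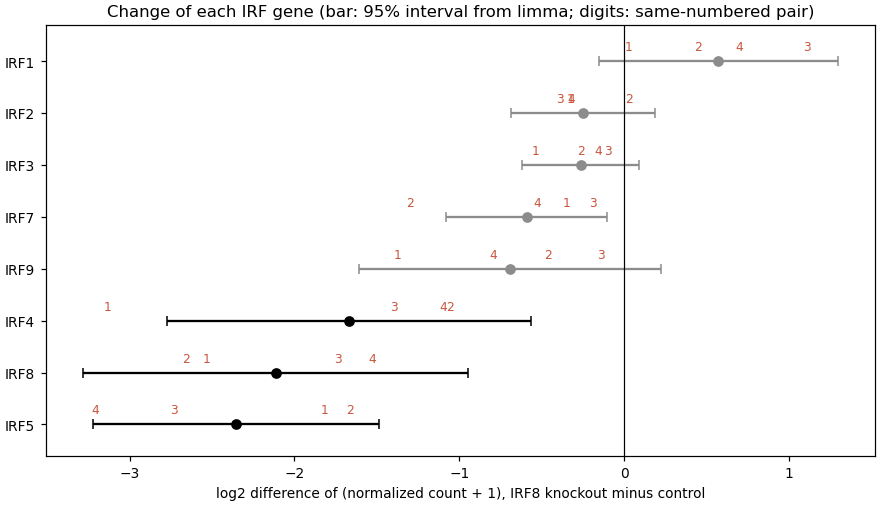
Log2 difference between IRF8 knockout and control cells for each IRF gene, with the 95% interval from limma and the differences of the 4 same-numbered pairs (pairs by label only) as digits. Black points (IRF4, IRF5 and IRF8) passed an adjusted p of 0.05 and grey points did not. All 4 pairs lie left of 0 for IRF3, IRF4, IRF5, IRF7, IRF8 and IRF9, and all 4 lie right of 0 for IRF1.

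With the target reduced, the makeup of the reads on the family changed. The summed normalized count of the 8 genes was 38441 ± 12398 in the control and 15005 ± 4301 in the knockout libraries (SD, n = 4 each), and the groups did not overlap (exact two-sided permutation test, p = 0.029). IRF8 held between 61.0% and 83.2% of this sum in the control and between 21.8% and 62.5% in the knockout libraries, so that these shares overlapped (exact two-sided permutation test, p = 0.057). The share of IRF1 was 2.17% to 8.66% in the control and 11.2% to 26.8% in the knockout libraries, and that of IRF3 averaged 7.49% ± 1.78 against 15.7% ± 2.94 (SD, n = 4 each). The sum, and with it each share, includes the targeted gene, which was its largest part in every control library. A share can thus rise without more reads, as for IRF3, which averaged 2732 normalized counts in the control and 2277 in the knockout libraries. Without IRF8, the sum of the other 7 genes was 9033 ± 457 and 7630 ± 1123 (SD, n = 4 each), with every knockout library below every control library. These are shares of reads, not corrected for transcript length, so they do not rank the genes by molecules.

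**Figure D3:**
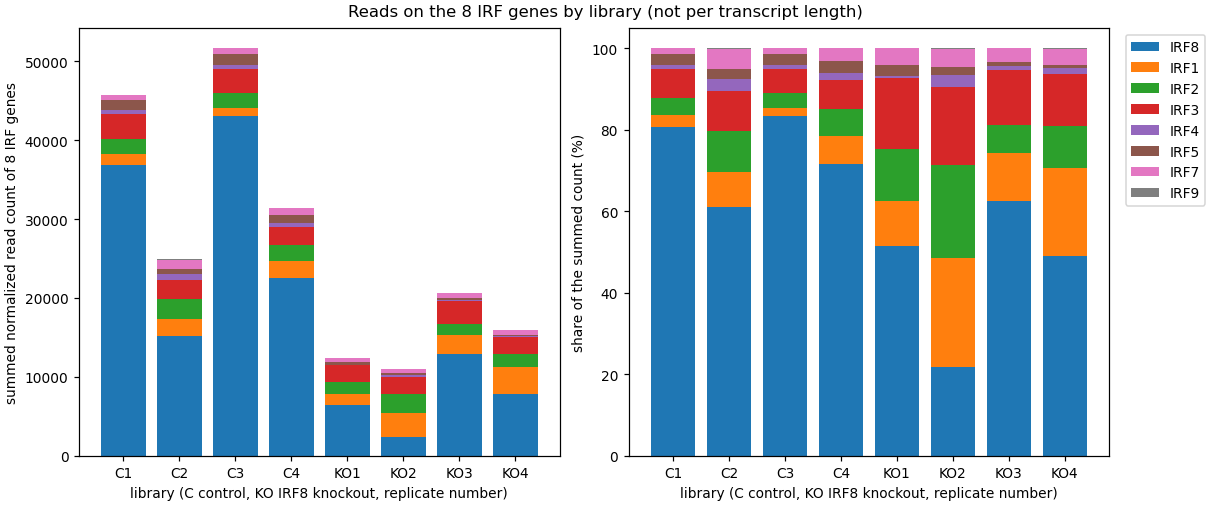
Summed normalized read count of the 8 IRF genes (left) and the share of each gene in that sum (right) in the 4 control (C) and 4 IRF8 knockout (KO) libraries. IRF8 makes up between 61.0% and 83.2% of the bar in the control libraries and between 21.8% and 62.5% in the knockout libraries, with the lowest share in KO2.

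The members were also set beside IRF8 library by library. In the control libraries, IRF8 was highest in replicate 3, followed by 1, 4 and 2, and IRF5 had the same order. IRF1, IRF2 and IRF9 had the opposite order, with replicate 2 highest and 3 lowest. IRF8 averaged 2.12 times as much in replicates 1 and 3 as in 2 and 4, and IRF5 1.66 times as much. IRF1 averaged 1.72 times as much in replicates 2 and 4 as in 1 and 3, IRF7 1.53 times and IRF9 1.62 times. Such a split of the control replicates was present in 7 of the 8 members, all but IRF4, which is close to the 81.2% of all tested genes. This split was therefore not particular to the family. How many of all tested genes have the full order of IRF8 or its reverse was not counted.

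In the knockout libraries the order of IRF8 was 3, 4, 1 and 2, while IRF5 was highest in replicate 1 and lowest in replicate 4. The ratio of IRF5 to IRF8 was between 0.0328 and 0.0427 in all 4 control libraries. In the knockout libraries it was 0.0538 and 0.0812 in replicates 1 and 2, above the control range, and 0.0164 and 0.0132 in replicates 3 and 4, below it (exact two-sided permutation test of the group difference, p = 0.69). IRF4 followed neither, with its lowest knockout value in replicate 1, and its ratio to IRF8 ranged from 0.0118 to 0.0473 in the control and from 0.0090 to 0.144 in the knockout libraries. No correlation is given, since the groups form separate clusters of 4 libraries. The falls of IRF8 and IRF5 were present within replicates 1 and 3 (log2 differences of -2.13 and -2.28) and within replicates 2 and 4 (-2.09 and -2.44), whereas that of IRF4 was -2.26 and -1.08.

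Over the 8 libraries, the genes whose log2 profile lay closest to that of IRF8 were CD1D, CSGALNACT1, AURKC, EBF3 and TBX3, with root mean square differences of 0.309 to 0.375 after centring each gene on its own mean. The difference between the groups enters this closeness and the ranks below. A fall in the knockout libraries and a similar order of the libraries therefore come with the choice of these genes. CD1D presents lipid antigens, and its normalized counts were 950, 494, 925 and 564 in the control and 127, 57.3, 286 and 114 in the knockout libraries. CSGALNACT1 and AURKC were low genes, with at most 70.9 and 40.8 normalized counts in any library. EBF3 and TBX3 are transcription factors. Of these genes, CSGALNACT1 and TBX3 overlapped between the groups and did not pass the test, although both were called with the replicate block (limma adjusted p = 0.013 and 0.012) and by DESeq2 (adjusted p = 0.025 and 0.050, the second just below the threshold). AURKC and EBF3 lost their calls without control replicate 1 or 3 or knockout replicate 1 (limma adjusted p of up to 0.11), EBF3 also without control replicate 4 or knockout replicate 2. The profile closest to IRF5 was that of SAMHD1 (root mean square difference 0.235), a dNTP hydrolase that restricts retroviruses, followed by RHOBTB2, MEFV, TENT5B and FCGRT. SAMHD1 had 8920, 4535, 8619 and 5720 normalized counts in the control and 2040, 955, 1293 and 893 in the knockout libraries. It is a gene of chromosome 20, where the median log2 difference over 351 tested genes was -0.92. IRF5 was the 141st closest gene to IRF8, the nearest of the members, and IRF1 the farthest at rank 11377 of the other tested genes.

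**Figure D4:**
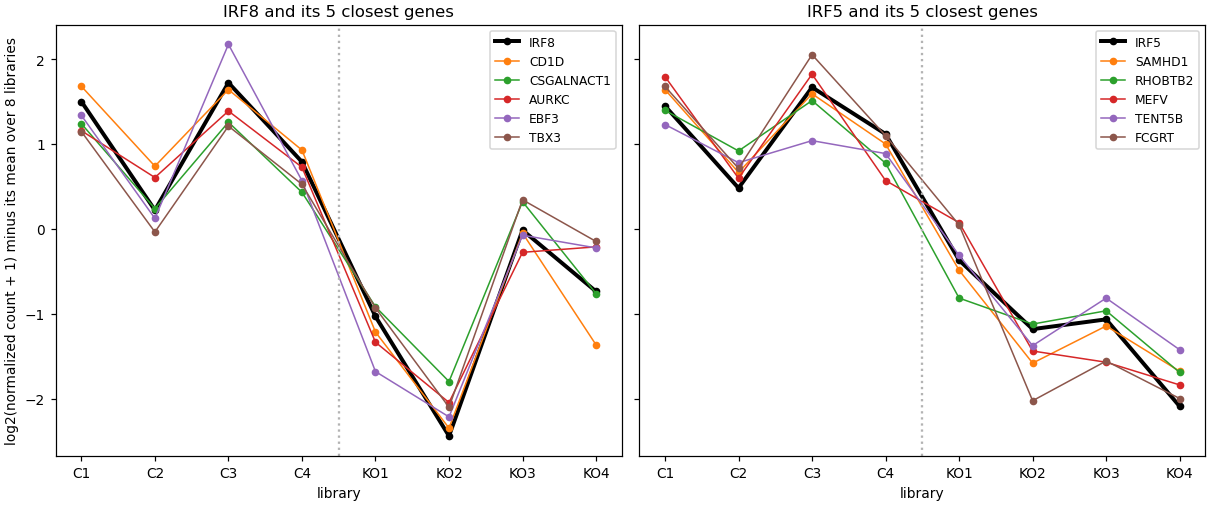
Log2(normalized count + 1), centred on the mean over the 8 libraries, for IRF8 with its 5 closest genes (left) and IRF5 with its 5 closest genes (right), in control (C) and IRF8 knockout (KO) libraries. Every gene of the left panel is lowest at C2 among the control and at KO2 among the knockout libraries, and every gene of the right panel is highest at KO1 among the knockout libraries. The closest genes were picked by these same values.

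Among the DNA-binding partners and cofactors of IRF proteins, 5 of 24 tested genes were called (3 higher, 2 lower), or 20.8% against the 18.2% of all tested genes, and their median log2 fold change was -0.10. SPIB, an ETS partner of IRF4 and IRF8, fell from 1263, 1131, 1238 and 1075 to 97.0, 698, 321 and 272 normalized counts, a log2 difference of -2.08 ± 0.50 (SE) at an adjusted p of 0.021 in limma. TCF3, a bHLH factor, fell by 0.43 on the log2 scale. The ETS factor FLI1 (log2 fold change 0.65), the AP-1 subunit JUN (1.07) and the acetyltransferase KAT2B (1.07) rose. SPI1, which encodes PU.1, had 8399 ± 1124 against 10571 ± 3171 normalized counts (SD, n = 4 each) and a log2 difference of 0.29 (limma adjusted p = 0.40). BATF3 (0.05) and the IRF2 corepressor IRF2BP2 (-0.43) did not pass the test either, but IRF2BP2 was called with the replicate block (limma adjusted p = 0.043). That fit called 12 of the 24, 4 higher and 8 lower, where it called 28.7% of all tested genes. The number fell to 2 without control replicate 1 or without knockout replicate 4, and to 3 without control replicate 3. The call of SPIB was lost without control replicate 1 or knockout replicate 4 (limma adjusted p of up to 0.053). Those of TCF3 (up to 0.078) and JUN (up to 0.10) were lost without control replicates 1 or 3 or knockout replicates 1 or 4, and also without control replicate 2 for TCF3 and without control replicate 4 or knockout replicate 3 for JUN.

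Of the receptors, adaptors and kinases that activate IRF3, IRF5 and IRF7, 9 of 30 tested genes were called (3 higher, 6 lower), or 30.0% against the same 18.2%, with a median log2 fold change of 0.09. TLR7, an endosomal RNA sensor that signals to IRF5 and IRF7, fell from 153, 915, 129 and 821 to 5.33, 58.3, 9.48 and 65.9 normalized counts (a log2 difference of -3.95 ± 0.97 (SE) at an adjusted p of 0.023 in limma). The levels in replicates 2 and 4 were above those in 1 and 3 in both groups. CXorf21 (now TASL), the adaptor that recruits IRF5 to these receptors, fell by 1.45 on the log2 scale, CGAS by 0.93 and TBKBP1 by 0.86. In the other direction, TLR3 (log2 fold change 3.34), the adaptor TIRAP (1.62) and TLR4 (1.47) rose, TLR3 from at most 8.63 to between 22.4 and 67.9 normalized counts. MYD88 (0.11) and the IRF3 kinase TBK1 (0.25) did not pass the test (limma adjusted p = 0.74 and 0.30). The replicate block raised the number called to 14, with 6 higher and 8 lower, beside 28.7% of all tested genes. MAVS, 1 of the 6 called lower, lies on chromosome 20. Leaving out control replicate 2 or 4 or knockout replicate 1 or 3 ended the call of TLR7 (limma adjusted p of up to 0.066), and leaving out control replicate 4 or knockout replicate 1 or 4 ended that of TBKBP1 (up to 0.059). CXorf21 was called without control replicate 2 or 4 and lost with any other library left out (up to 0.063).

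In the list of interferons, their receptors and the JAK-STAT pathway, 9 of 28 genes were below the mean required for testing. Of the 19 tested genes 3 were called, all lower, with a median log2 fold change of -0.22. This is 15.8% against the 18.2% of all tested genes. None was called higher in this fit or with edgeR, against 4 at an unadjusted limma p below 0.05 and 3 with DESeq2, and 1 or 2 were in the limma fits with quantile normalization, library weights or the replicate block or without knockout replicate 1. PTPN6, a phosphatase that restrains cytokine signaling, had 25122 ± 1064 normalized counts in the control and 14422 ± 2506 in the knockout libraries (SD, n = 4 each) and fell by 0.82 on the log2 scale (limma adjusted p = 0.0041). PTPN1 (-0.70) lies on chromosome 20, and the interferon receptor subunit IFNAR2 (-0.74) on chromosome 21, where the median over 129 tested genes was -0.33. STAT2, with 1339, 3808, 1270 and 3150 in the control and 1643, 2134, 1024 and 1620 in the knockout libraries, followed the split of the control replicates and did not pass (log2 fold change -0.45, limma adjusted p = 0.49). With the replicate block, 6 genes were called, 2 higher and 4 lower, beside 28.7% of all tested genes. IFNAR2 was called without control replicate 2 or knockout replicate 1 and lost with any other library left out (limma adjusted p of up to 0.12).

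Of the interferon-stimulated genes, 11 of 42 tested genes rose, or 26.2% against the 8.65% of all genes called higher, and the median log2 fold change of the list was 0.35. Whether each listed gene carries the element that IRF proteins bind was not examined. None was called lower in this fit or with edgeR, although 3 were lower at an unadjusted limma p below 0.05 and DESeq2 called 1. Genes called lower also came with the replicate block (4), without knockout replicate 2 (2), and without knockout replicate 1, with a pseudocount of 5, with quantile normalization and with library weights (1 each). OAS3, which activates RNase L on double-stranded RNA, had 66.0, 131, 27.9 and 66.8 normalized counts in the control and 935, 1600, 1058 and 1355 in the knockout libraries (a log2 difference of 4.23 ± 0.42 (SE) at an adjusted p of 3.6e-04 in limma). IFIT2 (3.90) and IFIT1 (3.11), which bind viral RNA, and the ISG15 ligase HERC5 (2.92) rose from control values of at most 43.3, 6.90 and 17.9 normalized counts. The other 31 tested genes did not pass. By sign alone, 30 of the 42 were higher and 12 lower. The lower ones included OAS2 (log2 fold change -3.57, limma adjusted p = 0.061) and IFIT5 (-0.96, limma adjusted p = 0.48). HERC5 was lost without knockout replicate 3 or 4 (limma adjusted p of up to 0.057). The replicate block called 21 genes, 17 higher and 4 lower, beside 28.7% of all tested genes.

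**Figure D5:**
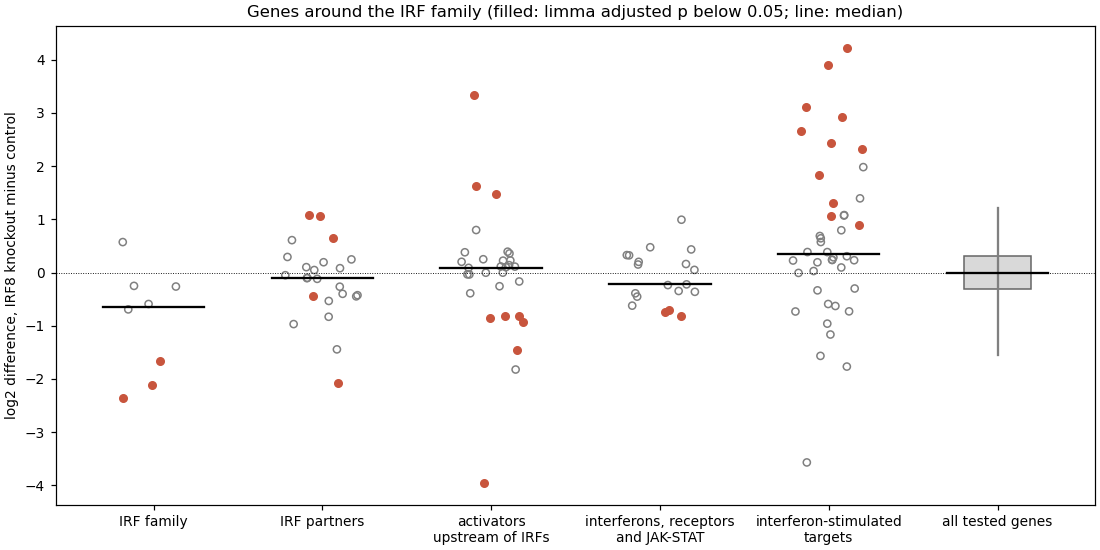
Log2 difference between IRF8 knockout and control cells for the 8 IRF genes, for 4 lists of genes around them and for all tested genes (box: middle 50%; whisker: 5th to 95th percentile). Filled points passed a limma adjusted p of 0.05. The called IRF genes all lie below 0 and the called interferon-stimulated genes all above 0.

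With other tools, the quasi-likelihood test of edgeR called IRF5 and IRF8 (17.8% of all tested genes), and on the same recovered reads DESeq2 called IRF4, IRF5, IRF7 and IRF8 (25.9% of all tested genes).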

How the data were processed

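RNA-Seq libraries of 4 control and 4 IRF8 knockout samples were analysed. The authors aligned reads to GENCODE v32 with RNA-Star, counted them with featureCounts and deposited a signal per gene, the read counts divided by the DESeq2 size factor of each library. Control libraries are headed WT with their replicate number. Their second table holds the authors' own comparison and was not used, nor were the ChIP-Seq samples. All columns were assigned, so 0 were left out.

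Values were divided by the value of a single read, which gave whole reads for 100% of them (tolerance 0.01). The main test was limma 3.58.1 (R 4.3.3) with a pseudocount of 1 before the log2 step, and a trended, robust prior, for genes with a mean of at least 10. edgeR 4.0.16 and DESeq2 1.42.0 ran on the recovered reads. The pipeline was tested on simulated counts with the same dispersion for every gene and no split between replicates. That test cannot show how the fits behave under the split present in these libraries. Depth was 39560072 to 65519047 reads, and counting error alone is large for IRF9.

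Named genes were all members, the 4 largest called rises and falls of each list, the fixed partners or activators (SPI1, STAT2, BATF3, IRF2BP2, TBK1, MYD88) and the 5 profiles closest to IRF8 and to IRF5. MAVS, OAS2, IFIT5 and the marker genes were named after their values were seen, as were the ratios between members. Some items that the rule or the marker lists name are not reported here. The members and lists were chosen with earlier results of these data known.

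Deviations from the group means correlated between same-numbered control and knockout libraries at 0.37, 0.48, 0.45 and 0.50 across genes, so a fit with the number as a block was run. Unlike numbers within replicates 1 and 3 (0.47 and 0.41) and within 2 and 4 (0.40 and 0.41) correlated about as much, so these correlations follow that split and do not single out the number. The sources do not say what a number marks. Alternatives changed the pseudocount (0.5, 5), filter (none, 100), scaling, library weights, tool, thresholds and libraries, or added the replicate block. Transcript lengths were not used here, so levels of different genes were not compared per length.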

Additional observations from a re-analysis of the deposited data

Results flagged for a closer look

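Of 88 groups of 4 values (the members and the other genes that the rule named), 4 held a library far from the other 3 (Dixon's criterion at 95%), and about 1 group in 20 does so by chance. In the knockout libraries, IRF3 reached 2826 normalized counts in replicate 3, with the next value at 2164. IRF4 reached 718.5 in control replicate 2, with the next at 513. FCGRT and MEFV, which were named for profiles close to that of IRF5, reached 389 and 154.5 in knockout replicate 1, with the next values at 127 and 53.5.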

How the results depend on the processing

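No member changed direction under any setting listed in the processing notes. The limits are the size of the groups, the closeness of IRF4 and IRF8 to the threshold and the split between replicates 1 and 3 and replicates 2 and 4. A further limit is that only the knockout cells are described as clones. Loss of IRF8 and clonal origin therefore cannot be told apart. When libraries were left out singly, between 1 and 3 members were called, and between 2 and 7 genes of the partner list. The replicate block raised the number of all genes called from 2387 to 3769, that of partners to 12, of activators to 14, of interferon pathway genes to 6 and of interferon-stimulated genes to 21, and of the members it changed the call of IRF1 alone. The thresholds of the study were applied here to the limma fit, whereas the paper applied them with DESeq2. They gave 1429 genes in all, 3 partners and 0 interferon pathway genes. Of the interferon pathway genes, DESeq2 called 6 and library weights 5 at an adjusted p below 0.05. The cause was not tested. The scalings moved the median of all genes by less than 0.1. Coding length could not be tried in place of gene length, because no transcript lengths were used. Depth limits IRF9.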

Other observations

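IRF9 was counted with 7 to 37 reads per library, while its partner STAT2 had between 1024 and 3808 normalized counts. These values are not corrected for transcript length, and how the counting treated reads shared by gene models at this locus was not tested.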
